A study of Mus musculus with 18 samples.

Results

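The genes described here are 10 mouse genes of the activin and TGF-beta system: the ligand genes Inhba, Inhbb, Tgfb1, Tgfb2 and Tgfb3, the antagonist and follistatin-family genes Fst, Fstl3 and Fstl1, and the latent TGF-beta binding protein genes Ltbp1 and Ltbp2. They are 10 of 19937 genes measured by a probe set with a single gene symbol on an Affymetrix mouse gene array, and each of the 10 had exactly 1 such probe set. Inhba and Tgfb3 were picked for their rise in these data, so their differences between FXR and control fat are given as a description, without a test, and the other 8 members were tested. Total RNA from adipose tissue was labelled with biotin and hybridised, 1 sample per array, in 4 groups: 5 brown adipose tissue (BAT) samples of FXR mice, 5 BAT samples of controls, 4 white adipose tissue (WAT) samples of FXR mice and 4 WAT samples of controls. FXR mice overexpressed human FXR, the bile acid receptor, in adipose tissue, and controls were wild type. All were male C57BL/6J mice, 10 weeks old and on chow, and the labels of control BAT 2 and 4 add a feeding time of 6 weeks. From the labels used here, the promoter of the transgene, the depot of the white fat and any sharing of mice between the tissues are unknown. The samples of a group are called biological replicates in the design text. A p-value reflects the spread among such replicates, moderated by limma across all genes, and no other source of variation.

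Activins and TGF-beta proteins are secreted dimers of 1 family. They bind pairs of serine/threonine kinase receptors, which phosphorylate SMAD2 and SMAD3, and these enter the nucleus with SMAD4 and change transcription. Activin A is a dimer of the chains that Inhba encodes, and activin B of the chains that Inhbb encodes. Follistatin and follistatin-like 3 bind activins tightly and keep them from their receptors. TGF-beta leaves the cell in a latent complex, which LTBP1 anchors to the extracellular matrix until integrins or proteases release it. In fat, activin A is known as a product of adipose progenitors that holds back adipocyte differentiation, and TGF-beta as an inducer of collagen genes in fibroblasts.

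The value for each gene is the intensity of its probe set on the linear scale of the authors' deposited table. The array's lower end is a floor of background, taken here as the 1% quantile of each array, which lay between 49.7 and 52.3 on BAT arrays and between 44.9 and 46.8 on WAT arrays. A gene within 1.5 times the floor is called dim. Array medians were 93.1 to 99.9 in BAT and 60.5 to 61.7 in WAT, so the tissues were not on a common scale. The brown adipocyte markers Ucp1 and Cidea were at 11.80 log2 units or more on every BAT array and dim on every WAT array, as the tissue labels say, while Dio2 and Elovl3 averaged 2.61 and 4.10 times the floor in FXR BAT, against 12.2 and 22.9 times in control BAT. Skeletal muscle markers averaged 11.02, 10.41 and 11.01 log2 units on FXR BAT 1, 2 and 4, against 6.80 to 9.07 on the control BAT arrays. The 3 measured epididymis markers, of 5 listed, averaged 7.29 log2 units on FXR WAT 1, while its 3 group mates had 5.74 to 5.98 and control WAT arrays 5.73 to 5.90. This rested on Lcn5 and Adam7, which reached 8.43 and 7.56 in FXR WAT, while Defb20 was dim on every WAT array. Values without FXR BAT 1, 2 and 4 or FXR WAT 1 are given where they touch a result. The probe set of mouse Nr1h4, the gene of FXR, read 73.0 to 78.6 in FXR BAT, 70.0 to 76.8 in control BAT, 56.6 to 65.5 in FXR WAT and 58.3 to 61.7 in control WAT. It is designed on the mouse gene, so it does not check a human transgene.

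The sequence just upstream of a gene's start is where many transcription factors bind, and 8 of the 10 members had such a sequence in RefSeq's promoter table, in 9 windows (build GRCm38.p6); Tgfb3 and Fst are named only. The 250 bases before the start are shown for Inhba, the member with the largest difference, and for Fstl1, Fstl3 and Ltbp1, which passed the test in at least 1 tissue, with Tgfb1 as a ligand that passed in neither. They are written 5′ to 3′, and capitals mark the SMAD site CAGAC on either strand.
Inhba, chr13:16011601-16011850, + strand: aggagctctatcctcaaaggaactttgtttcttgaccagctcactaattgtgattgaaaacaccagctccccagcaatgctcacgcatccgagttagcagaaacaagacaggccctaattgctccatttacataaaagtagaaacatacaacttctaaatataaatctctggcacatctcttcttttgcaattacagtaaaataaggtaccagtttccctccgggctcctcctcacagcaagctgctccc
Fstl1, chr16:37776805-37777054, + strand: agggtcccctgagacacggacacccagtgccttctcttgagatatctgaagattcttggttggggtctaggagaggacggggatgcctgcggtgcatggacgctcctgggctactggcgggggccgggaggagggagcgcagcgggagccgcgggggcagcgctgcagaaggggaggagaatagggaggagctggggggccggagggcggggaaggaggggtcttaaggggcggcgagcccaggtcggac
Fstl3, chr10:79777024-79777273, + strand: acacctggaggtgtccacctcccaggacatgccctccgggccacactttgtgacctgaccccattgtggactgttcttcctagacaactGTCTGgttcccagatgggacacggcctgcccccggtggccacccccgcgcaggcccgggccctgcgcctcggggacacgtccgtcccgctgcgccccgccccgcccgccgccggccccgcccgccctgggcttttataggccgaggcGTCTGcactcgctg
Ltbp1, chr17:75005279-75005528, + strand: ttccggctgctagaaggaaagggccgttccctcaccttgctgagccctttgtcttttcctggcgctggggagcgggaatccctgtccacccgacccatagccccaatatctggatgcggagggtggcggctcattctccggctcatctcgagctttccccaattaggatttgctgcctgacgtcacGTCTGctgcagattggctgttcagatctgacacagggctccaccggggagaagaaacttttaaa
Tgfb1, chr7:25686752-25687001, + strand: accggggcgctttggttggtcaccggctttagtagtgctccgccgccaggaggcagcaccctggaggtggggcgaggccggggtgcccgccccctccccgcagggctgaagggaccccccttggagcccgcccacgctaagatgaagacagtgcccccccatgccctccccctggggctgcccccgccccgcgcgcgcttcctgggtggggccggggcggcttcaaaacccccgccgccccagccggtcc

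The Inhba window had a GC content of 43.2%, against 68% for Fstl1, 71.2% for Fstl3, 56.8% for Ltbp1 and 75.2% for Tgfb1, and the median of all 32851 windows in the table was 52.4%. Each motif below was searched as plain letters on both strands, and its share of all 32851 windows is given with it. The TATA box, TATAAA, was found 91 bases before the start of Inhba and 29 bases before that of Fstl3 (12.4% of all windows). It also stood 31 bases before the start of Tgfb2, whose window is not shown. The SMAD site, CAGAC, stood 161 and 14 bases before the start of Fstl3 and 64 bases before that of Ltbp1 (42.2% of all windows). Of the windows not shown, it stood at 221 and 204 bases for Tgfb2 and at 205 and 176 bases for Ltbp2. Tgfb2 and Ltbp2 passed the test in neither tissue. A second Ltbp1 window, also not shown, held it at 148 and 97 bases. The Inhba, Fstl1, Tgfb1 and Inhbb windows lacked these letters. The GC box bound by Sp1, GGGCGG, occurred in the Fstl1, Fstl3 and Tgfb1 windows and in those of Inhbb and Ltbp2, not shown (32.7% of all windows). The cAMP response element, TGACGTCA, lay 73 bases before the start of Ltbp1 (1.55% of all windows), where CCAAT boxes, CCAAT, were also found (33.8% of all windows). A CCAAT box also lay 130 bases before the start of Tgfb2. None of the 9 member windows held the AP-1 site TGANTCA (6.75% of all windows), the SMAD palindrome GTCTAGAC (0.167%) or the consensus inverted repeat that FXR binds with its partner RXR (0.00609%). A match or its absence describes these letters in this window only.

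Inhba, which encodes the chain of activin A, was among the members higher in FXR fat of both tissues. Its intensity in FXR BAT was 356, 316, 575, 417 and 564, against 90.0, 83.2, 81.7, 81.3 and 89.5 in control BAT. Every FXR array lay above every control array, and the FXR arrays differed far more among themselves, with a coefficient of variation of 26.6% against 5.02% in control BAT. In WAT it was 90.7, 156, 150 and 185 in FXR mice, against 55.3, 62.7, 69.1 and 61.4 in controls, again without overlap. The lowest FXR value came from FXR WAT 1, the array with high levels of the epididymis markers Lcn5 and Adam7. On the log2 scale Inhba was higher in FXR BAT by 2.33 ± 0.15 and in FXR WAT by 1.17 ± 0.19 (SE, n = 5 and 5, and n = 4 and 4). These are the values the gene was picked for. Control levels stood close to background, at 1.58 to 1.80 times the floor in BAT and 1.19 to 1.54 times in WAT, where 1 of 4 control arrays was not dim. With the floor subtracted, the differences were 2.98 in BAT and 1.79 in WAT. Without FXR BAT 1, 2 and 4 the BAT difference was 2.73, and without FXR WAT 1 the WAT difference was 1.38. Mean intensities were 446 ± 119 in FXR BAT and 85.1 ± 4.28 in control BAT, and 145 ± 39.4 in FXR WAT and 62.1 ± 5.64 in control WAT (mean ± SD). The order between tissues depends on the scale: control BAT minus control WAT was 0.45 as deposited, -0.09 after quantile normalization and -0.21 with median centring.

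Tgfb3, the gene of TGF-beta 3, was the other member picked for its rise. It read 210, 197, 208, 208 and 211 in FXR BAT, against 98.6, 93.6, 109, 104 and 100.2 in control BAT. In FXR WAT it read 140, 147, 149 and 145, against 106, 103, 125 and 104 in control WAT. The groups did not overlap in either tissue, and the FXR arrays were tightly grouped, with a coefficient of variation of 2.81% in BAT and 2.73% in WAT. The difference was 1.02 ± 0.04 log2 units in BAT and 0.41 ± 0.06 in WAT (SE), again as a description. Unlike Inhba, Tgfb3 was not dim on any array: its lowest reading was 1.84 times the floor in control BAT and 2.19 times in control WAT.

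The other 3 ligand genes did not pass the test in either tissue. Tgfb1, the most studied TGF-beta gene, read 179, 181, 175, 191 and 193 in FXR BAT, against 179, 167, 176, 199 and 184 in control BAT, and 198, 174, 182 and 214 in FXR WAT, against 186, 164, 190 and 182 in control WAT. FXR and control arrays were interleaved in both tissues. The difference was 0.02 ± 0.05 in BAT (adjusted p = 0.845, limma, Benjamini-Hochberg over all genes), with a 95% interval of the fold from 0.943 to 1.09, and 0.09 ± 0.07 in WAT (adjusted p = 0.706, limma), with an interval from 0.951 to 1.19. Tgfb2 read 95.5, 92.2, 84.3, 87.4 and 102 in FXR BAT, against 80.3, 79.5, 91.5, 82.2 and 86.2 in control BAT. Its BAT difference of 0.13 ± 0.06 had an unadjusted p of 0.0364 and an adjusted p of 0.143 (limma). In WAT it was close to background, at 63.4 to 70.1 in FXR mice and 63.9 to 71.4 in controls, with 2 of 4 FXR and 1 of 4 control arrays not dim, so a change there could hardly be detected. Inhbb, which encodes the chain of activin B, read 95.5 to 108 in FXR BAT against 86.8 to 100.3 in control BAT, and 109 to 116 in FXR WAT against 91.8 to 129 in control WAT. Its differences were 0.11 ± 0.05 in BAT (adjusted p = 0.229, limma) and 0.07 ± 0.09 in WAT (adjusted p = 0.845, limma). The directions of Tgfb1 in BAT and of Tgfb2 and Inhbb in WAT turned in some alternatives. The plot of intensity by array shows how the picked ligands part from these 3.

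**Figure D1:**
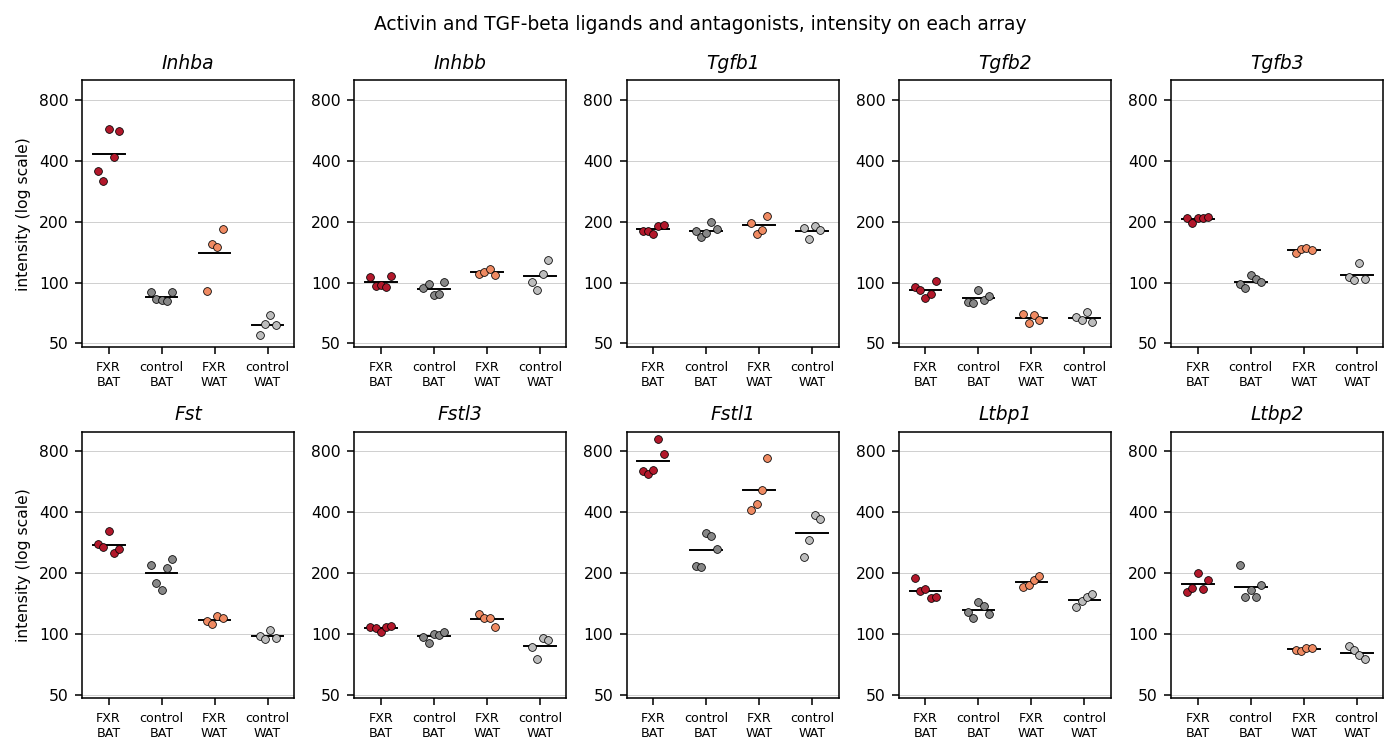
Intensity (log scale) of each member on each array, for FXR BAT and control BAT (5 arrays each) and FXR WAT and control WAT (4 arrays each); points are arrays and the bar is the mean of the log2 values. Inhba, picked for its rise, lies at 316 to 575 in FXR BAT, against 81.3 to 90.0 in control BAT, while Tgfb1 lies at 175 to 193 against 167 to 199.

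Fst encodes follistatin, which neutralises activins, and it was higher in FXR fat of both tissues. It read 279, 269, 324, 251 and 263 in FXR BAT, against 219, 178, 165, 211 and 234 in control BAT. In FXR WAT it read 116, 111, 123 and 120, against 98.1, 94.9, 105 and 95.6 in control WAT. The groups were apart in both tissues, with the nearest arrays at 251 and 234 in BAT and at 111 and 105 in WAT. Fst rose 1.38-fold in FXR BAT, by 0.46 ± 0.10 log2 units (adjusted p = 0.00965, limma), and 1.19-fold in FXR WAT, by 0.26 ± 0.04 (adjusted p = 0.0315, limma). In BAT it passed with any 1 array left out. In WAT it passed without control WAT 3 or FXR WAT 2 and missed the threshold without any other single array (adjusted p 0.0639 to 0.108, 6 of 8). It also missed there in the fit over all 18 arrays (adjusted p = 0.236, limma).

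Fstl3, a follistatin-like protein that also binds activins, changed in both tissues but more in WAT. It read 126, 120, 121 and 108 in FXR WAT, against 86.2, 75.0, 95.6 and 93.6 in control WAT, with no overlap. It rose 1.35-fold there, by 0.44 ± 0.08 (adjusted p = 0.0383, limma). In FXR BAT it read 108, 107, 102, 108 and 109, against 96.9, 90.3, 100.3, 98.4 and 103 in control BAT, where FXR BAT 3 fell below control BAT 5. The BAT rise of 0.13 ± 0.04, 1.09-fold, passed narrowly (adjusted p = 0.0416, limma). It missed the threshold in 15 of 21 alternatives. Among these were 8 of the 10 fits without 1 array (adjusted p 0.0555 to 0.0893), all but those without control BAT 5 or FXR BAT 3. With arrays centred on their medians the BAT value was 0.05, and under quantile normalization it was 0.06. In WAT it missed without any 1 array except control WAT 3 (adjusted p 0.054 to 0.1 in 7 of 8).

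Fstl1, a secreted glycoprotein of mesenchymal cells that shares a follistatin domain but is not chiefly known as an activin binder, had the largest difference of the 8 tested members in both tissues. It read 642, 617, 644, 923 and 778 in FXR BAT, against 217, 215, 314, 305 and 263 in control BAT, so that the lowest FXR array was well above the highest control array. It rose 2.74-fold in BAT, by 1.45 ± 0.14 (adjusted p = 8.59e-05, limma), and passed in all 21 alternatives, with values from 1.36 to 1.6. In FXR WAT it read 410, 441, 513 and 740, against 241, 293, 386 and 369 in control WAT. The WAT arrays did not overlap, but they spread widely within each group, and the difference of 0.69 ± 0.20 did not pass (adjusted p = 0.169, limma), with a 95% interval of the fold from 1.17 to 2.22.

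Ltbp1, which tethers latent TGF-beta to the matrix, was higher in FXR fat of both tissues by nearly the same amount. It read 190, 163, 167, 150.2 and 152 in FXR BAT, against 128, 120.0, 144, 138 and 125 in control BAT. In FXR WAT it read 169.7, 175, 184 and 194, against 137, 145, 152 and 157 in control WAT. No control array reached the lowest FXR array in either tissue. Ltbp1 rose 1.25-fold in BAT, by 0.33 ± 0.07 (adjusted p = 0.00893, limma), and 1.22-fold in WAT, by 0.29 ± 0.05 (adjusted p = 0.0433, limma). The BAT call held without any 1 array. The WAT call was lost when any 1 of the 8 arrays was left out (adjusted p 0.0563 to 0.137), with differences of 0.26 to 0.32, and under a trended and robust prior (adjusted p = 0.0544). Ltbp2, a matrix relative that does not bind latent TGF-beta, read 162, 170.0, 200.5, 166 and 184 in FXR BAT, against 218, 152, 164, 152 and 175 in control BAT, and 82.5 to 85.6 in FXR WAT against 75.2 to 87.0 in control WAT. Its differences of 0.04 ± 0.10 in BAT (adjusted p = 0.838, limma) and 0.06 ± 0.05 in WAT (adjusted p = 0.71, limma) did not pass, and the BAT direction turned under quantile normalization, median centring and without control BAT 2 and 4.

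**Figure D2:**
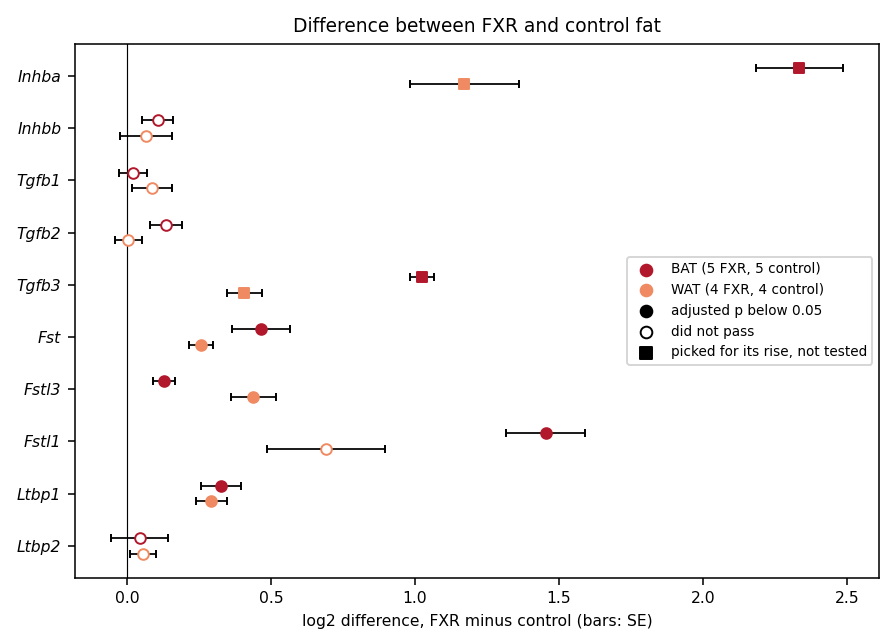
Difference between FXR and control fat for each member on the log2 scale, with its SE, in BAT (5 arrays each) and WAT (4 arrays each); filled circles passed an adjusted p of 0.05, open circles did not, and squares mark Inhba and Tgfb3, which were picked and not tested. Fstl1 stands at 1.45 in BAT and 0.69 in WAT, and Tgfb1 near 0 in both.

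Of the 8 tested members, 4 rose in FXR BAT and 0 fell, while over all genes 7.01% rose and 8.75% fell. In FXR WAT 3 of the 8 rose and 0 fell, while over all genes 0.873% rose and 0.456% fell. The median difference of the 8 was 0.13 in BAT and 0.17 in WAT, beside 0.01 and 0.00 over all genes. FXR arrays lay wholly above control arrays for 3 of the 8 in BAT (Fst, Fstl1 and Ltbp1; 5.89% of all genes) and for 4 of the 8 in WAT (Fst, Fstl1, Fstl3 and Ltbp1; 4.31% of all genes). The list was drawn up with results of these arrays known, so these counts describe it and do not test it. The BAT count was 3 without FXR BAT 1, 2 and 4, and the WAT count was 0 without FXR WAT 1 and 0 to 2 over the 8 fits without 1 array. Without control BAT 2 and 4, the arrays whose labels word the feeding differently, 1 of the 8, Fstl1, passed in BAT. The differences were then 0.44 for Fst (adjusted p = 0.0656, limma), 0.31 for Ltbp1 (adjusted p = 0.0540, limma) and 0.10 for Fstl3 (adjusted p = 0.185, limma). Over all genes, BAT calls split into 1398 higher and 1744 lower as deposited, and into 776 higher and 4076 lower with arrays centred on their medians.

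Whether the FXR change of a member differed between tissues was tested as the BAT change minus the WAT change over all 18 arrays. Of the 8 tested members 1 passed, Fstl3, and over all genes 6.46% did. The Fstl3 change was smaller in BAT than in WAT by 0.31 ± 0.09 log2 units, that is a value of -0.31 (adjusted p = 0.0385, limma). It missed the threshold in 14 of the 18 fits without 1 array (adjusted p 0.0503 to 0.0875), holding without control BAT 2, control WAT 3, control WAT 4 or FXR WAT 4, and its value without FXR BAT 1, 2 and 4 was -0.33 (adjusted p = 0.0902, limma). Fstl1 leaned the other way, with a BAT change larger by 0.76 ± 0.26, which did not pass (adjusted p = 0.0894, limma). It missed the threshold in 25 of 27 alternatives (adjusted p up to 0.185, limma), with values of 0.66 to 0.94 when 1 array was left out. Without FXR WAT 4, the highest Fstl1 array of its group, the Fstl1 difference was 0.94 (adjusted p = 0.0248, limma). For Fst it was 0.21 ± 0.13 (adjusted p = 0.395, limma) and for Ltbp1 0.03 ± 0.10 (adjusted p = 0.904, limma), with 95% intervals of the ratio of both folds from 0.962 to 1.39 and from 0.890 to 1.18. The picked Inhba and Tgfb3 had BAT changes larger than their WAT changes by 1.16 ± 0.26 and 0.62 ± 0.07. Under quantile normalization of all 18 arrays these were 0.54 and 0.36.

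In wild-type fat, the comparison of control BAT with control WAT depends on how the tissues are put on a scale. As deposited, 96.8% of all genes passed and the median gene was 0.59 log2 units higher in BAT. Of the 10 members 5 were then higher in BAT (Inhba, Tgfb2, Fst, Fstl3 and Ltbp2) and 2 lower (Inhbb and Ltbp1). Quantile normalization of the 9 control arrays left 57.9% of all genes past the threshold, and of the members 0 higher and 7 lower (Inhbb, Tgfb1, Tgfb2, Tgfb3, Fstl1, Fstl3 and Ltbp1). Inhba, Tgfb1, Tgfb2 and Fstl3 changed direction between both scalings. Inhbb and Ltbp1 were lower in BAT under both, at -0.20 ± 0.09 and -0.17 ± 0.06 as deposited (adjusted p = 0.0448 and 0.0153, limma) and at -1.04 ± 0.10 and -1.22 ± 0.05 after quantile normalization. As deposited, Inhbb missed the threshold in 5 of the 9 fits without 1 array (adjusted p 0.0676 to 0.144), and Ltbp1 without control WAT 4 (adjusted p = 0.0522).

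Fst and Ltbp2 were the 2 members above the shift of the median gene. Fst read 219, 178, 165, 211 and 234 in control BAT, against 98.1, 94.9, 105 and 95.6 in control WAT, a difference of 1.02 ± 0.09 (adjusted p = 6.71e-07, limma), which is 0.42 above the median gene. Ltbp2 differed by 1.07 ± 0.10 (adjusted p = 5.93e-07, limma), which is 0.48 above it. After quantile normalization they differed by 0.03 ± 0.08 and 0.20 ± 0.10 and did not pass (adjusted p = 0.795 and 0.0965, limma). Fstl1 was the member farthest from the median gene on the other side, at -0.88 relative to it, with 217, 215, 314, 305 and 263 in control BAT against 241, 293, 386 and 369 in control WAT. Its difference was -0.29 ± 0.16 as deposited (adjusted p = 0.0959, limma), and after quantile normalization it was -1.61 ± 0.13 (adjusted p = 7.72e-07, limma). The plot of both scalings shows this shift of every member to the left.

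**Figure D3:**
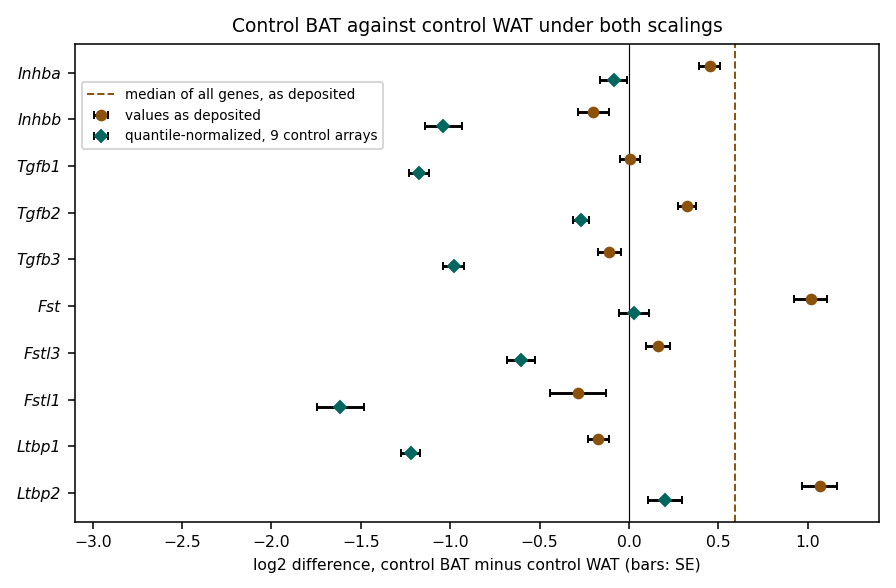
Difference between control BAT (5 arrays) and control WAT (4 arrays) of each member on the log2 scale, with its SE, for the values as deposited (circles) and after quantile normalization (diamonds); the dashed line is the median of all genes as deposited, 0.59. Fst and Ltbp2 lie right of that line, and all 10 members lie farther left after quantile normalization.

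The other genes of the pathway were read from 7 lists, drawn up from general knowledge with earlier results of these data known. Of the other ligands of the activin and TGF-beta branch, 9 of 11 were measured and none passed in either tissue. The smallest p belonged to Inha, the inhibin alpha chain, at 0.06 ± 0.03 in BAT (adjusted p = 0.277, limma), and to Gdf11 in WAT, at -0.12 ± 0.06 (adjusted p = 0.471, limma). Mstn, which encodes myostatin, had values of 0.07 ± 0.04 in BAT and 0.03 ± 0.03 in WAT (adjusted p = 0.304 and 0.777, limma). Only 6 of the 9 were above 1.5 times the floor on any BAT array and 1 on any WAT array, so a low change in these genes could not be detected.

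Among the 11 receptors and coreceptors, 1 rose and 1 fell in FXR BAT, which is near the share over all genes (7.01% higher and 8.75% lower). Acvr1b, the activin type I receptor ALK4, rose by 0.20 ± 0.04 (adjusted p = 0.0108, limma), and Eng, the endothelial coreceptor endoglin, fell by 0.50 ± 0.08 (adjusted p = 0.00218, limma). In WAT none passed; Acvrl1, an endothelial type I receptor, had 0.11 ± 0.03 (adjusted p = 0.126) and Acvr1c, the adipocyte receptor ALK7, had -0.46 ± 0.14 (adjusted p = 0.172, limma). Of 12 SMADs and intracellular regulators, 0 passed in BAT, where Ski and Tgif1, both nuclear repressors of SMAD signalling, had 0.16 ± 0.05 and 0.13 ± 0.05 (adjusted p = 0.0726 and 0.133, limma). In WAT 1 of the 12 rose (0.873% of all genes), Pmepa1, a TGF-beta-induced inhibitor of SMAD signalling, by 0.60 ± 0.09 (adjusted p = 0.0250, limma). It did not pass without FXR WAT 1, and in BAT it had -0.26 ± 0.12 (adjusted p = 0.167, limma).

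For latency, matrix storage and activation, 5 of 14 measured genes rose in FXR BAT and 0 fell (7.01% and 8.75% of all genes): Ltbp4, a relative of Ltbp1, by 0.36 ± 0.05 (adjusted p = 0.00101), Itgb5, an integrin chain that can release TGF-beta, by 0.57 ± 0.10 (adjusted p = 0.00293), and Emilin1, a matrix glycoprotein, by 0.25 ± 0.05 (adjusted p = 0.00463, limma), with Thbs1 and Itgav. In WAT, where 0.873% of all genes rose, 1 of the 14 did, Ltbp4, by 0.63 ± 0.09 (adjusted p = 0.0188, limma). Of 12 measured further antagonists, 3 rose in BAT and 0 fell, beside the same 7.01% and 8.75% of all genes. Bgn and Dcn, which encode the small matrix proteoglycans biglycan and decorin, rose by 1.80 ± 0.10 and 0.90 ± 0.14 (adjusted p = 2.97e-06 and 0.00162), and Nbl1, a BMP antagonist, by 0.32 ± 0.05 (adjusted p = 0.00113, limma). Bgn was the 1 of these to pass in WAT, by 0.86 ± 0.16 (adjusted p = 0.0386, limma), and none passed there without FXR WAT 1.

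Of the genes known to respond to TGF-beta and activin, 10 of 14 measured rose in FXR BAT and 1 fell, while 7.01% of all genes rose and 8.75% fell. Their median difference was 0.82 in BAT and 0.36 in WAT, beside 0.01 and 0.00 for all genes. The 7 measured fibroblast and progenitor markers all rose in FXR BAT too, with a median difference of 1.11. The list holds collagen and other matrix genes, and the part of fibroblasts in its values was not tested. Tgfbi, a TGF-beta-induced matrix protein, rose by 1.10 ± 0.10 (adjusted p = 6.28e-05), Lox, the collagen cross-linking enzyme, by 0.89 ± 0.08 (adjusted p = 7.63e-05), and Col1a2, a collagen I chain, by 1.53 ± 0.15 (adjusted p = 0.000100, limma). Postn, which encodes the matrix protein periostin and is also induced by TGF-beta, fell by 1.05 ± 0.21 (adjusted p = 0.00740, limma). None of the 14 passed in WAT, where Lox had 0.64 ± 0.14 and Acta2, smooth muscle actin, 0.91 ± 0.20 (adjusted p = 0.0657 and 0.0738, limma). Of 16 BMP branch genes, 5 rose in BAT and 0 fell (7.01% and 8.75% of all genes), with Bmp5 at 0.92 ± 0.12, the protease gene Bmp1 at 0.53 ± 0.07 and Bmp4 at 0.26 ± 0.04 (adjusted p = 0.000553, 0.000762 and 0.00269, limma). In WAT 2 of the 16 rose (0.873% of all genes), Gdf10 by 0.69 ± 0.13 and Bmp1 by 0.33 ± 0.06 (adjusted p = 0.0448 and 0.0498, limma), and neither passed without FXR WAT 1. Without FXR BAT 1, 2 and 4, the BAT counts were 10 higher and 1 lower for the response genes, 5 higher for latency, 3 for antagonists and 4 for BMP genes.

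**Figure D4:**
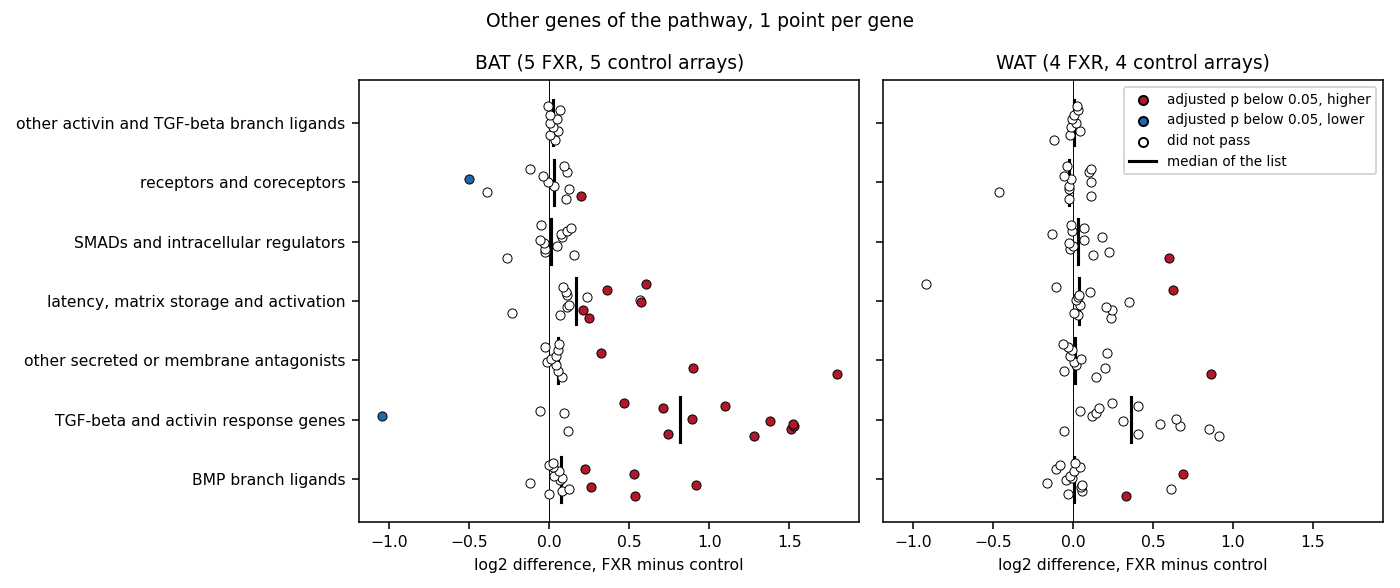
Difference between FXR and control on the log2 scale for each measured gene of the 7 pathway lists, in BAT (5 arrays each) and WAT (4 arrays each); red points rose, blue points fell and open points did not pass an adjusted p of 0.05, and the bar is the median of the list. The response genes have a median of 0.82 in BAT, with 10 higher and 1 lower, and 0.36 in WAT with none passing.

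Markers of other cell types moved with the same BAT arrays. Over all genes, 7.01% rose and 8.75% fell in FXR BAT, and 0.873% rose and 0.456% fell in FXR WAT. All 7 measured fibroblast and progenitor markers rose in FXR BAT, with an average level of 8.97 to 9.06 log2 units on FXR arrays against 7.75 to 8.20 on control arrays, and 1 of 7 rose in WAT (8.26 to 8.53 against 7.86 to 8.16). All 8 macrophage markers rose in BAT (7.97 to 8.20 in FXR against 7.11 to 7.57 in control), and 0 of 8 in WAT (7.83 to 8.22 against 7.66 to 8.12). All 5 brown adipocyte markers fell in FXR BAT, at 9.88 to 10.43 against 11.03 to 11.58, as did 4 of 6 general adipocyte markers. Of 6 mural and smooth muscle markers 3 rose and 1 fell in BAT. Of 6 endothelial markers 1 rose and 2 fell there, and of 10 skeletal muscle markers 2 rose. In whole fat, fewer cells of a type and less RNA per cell cannot be told apart, and the part of these cell types in the values of Inhba, Tgfb3, Fstl1 and the other members was not tested.

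The genes whose levels ran most like those of Inhba and Tgfb3 are named as a description, because the arrays of each tissue fall into 2 genotype groups that share any difference between FXR and control. Over the 10 BAT arrays, Inhba ran closest with Sema6d, Nox4, Septin8, Inpp5d and Col8a1 (Pearson correlation of log2 levels 0.989 to 0.984). Tgfb3 ran closest with Nox4, the NADPH oxidase gene (0.998), and then with Olfml2b, Stab1, Cd33 and Smtn (0.993 to 0.990). After group means were removed, the correlation with Nox4 was 0.585 for Inhba and 0.827 for Tgfb3. Over the 8 WAT arrays, Inhba ran closest with Eln, the elastin gene (0.981, and 0.911 after group means were removed), then with Rcn2, Castor1, Sertad4 and Tbcd (0.980 to 0.963). Tgfb3 ran closest there with Pfkfb4, Igsf3, Mgp, Ecm1 and Vldlr (0.981 to 0.972). Among the members themselves, with group means removed, the closest pair in WAT was Fstl1 and Ltbp1 (0.954 over 8 arrays). In BAT it was Tgfb3 and Fstl1 (0.733 over 10 arrays). Each is the highest of all member pairs in its tissue, and neither was as close in the other tissue. Fstl1 and Ltbp1 had 0.0067 in BAT, and Tgfb3 and Fstl1 had 0.377 in WAT.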

How the data were processed

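RNA of 18 adipose tissue samples was measured on Affymetrix mouse gene arrays, from labelled cDNA prepared with 500 ng of total RNA, per the labels' protocols. The authors deposited 1 intensity per probe set and array on a linear scale (36.0 to 15980), and the summarisation and normalization behind it are not given in the sources used here. Of 34760 probe sets, 21640 carried 1 gene symbol in the platform's annotation, 1321 carried more than 1, and 11799 are unnamed here. The probe set with the highest mean was kept for each of 954 genes with more than 1, which left 19937 genes.

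Without further normalization or filtering, log2(intensity + 1) was fitted with limma 3.58.1 (lmFit, eBayes; R 4.3.3). Tests were two-sided, Benjamini-Hochberg adjustment ran across the 19937 genes, and an adjusted p below 0.05 is a call. The 10 BAT arrays and the 8 WAT arrays gave the FXR minus control differences, a 4-group fit of all 18 arrays gave the difference of both changes, and the 9 control arrays gave BAT minus WAT. Changes of dim genes are compressed on this scale, and the number of arrays limits the precision.

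The members, the gene lists and the alternatives were chosen with earlier results of these data known. The text names all members, from each list up to 3 called genes per direction by adjusted p (2 genes as values where none passed), and the 5 genes most correlated with Inhba and with Tgfb3. Thbs1 and Itgav were named after their values were seen, to complete a count. On simulated data the BAT fit recovered 99 of 100 genes changed by 1 log2 unit and 91 of 100 changed by 0.5, and the WAT fit 99 and 94. The changes were added on the log2 scale to genes of any level, with independent noise. The simulation therefore held neither the compression of dim genes nor differences shared by a whole array, and it does not give the power for such cases. Deviations of same-numbered FXR and control arrays correlated between -0.49 and 0.28 for brown fat and between 0.01 and 0.16 for white fat, and those of control BAT and control WAT arrays between -0.08 and 0.26, so the numbers were not taken to pair samples. Alternatives were quantile normalization, median centring, a filter on dim genes, a pseudocount of 16, subtraction of the floor, the mean of probe sets, a trended robust prior, a replicate block, a shared fit and leaving out arrays. Figures were drawn with matplotlib 3.10.9.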

Additional observations from a re-analysis of the deposited data

Results flagged for a closer look

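In 40 groups of 4 or 5 values, 1 array stood apart from the rest of its group by Dixon's test at 95%, where chance gives about 1 in 20: Tgfb3 on FXR BAT 2, at 7.63 log2 units, against 7.71 to 7.73 on the other FXR BAT arrays. That array was still far above the control BAT arrays.

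The FXR change of Fstl3 differed between the tissues, with a BAT change minus WAT change of -0.31 ± 0.09 (SE, adjusted p = 0.0385, limma over all 18 arrays). The 5 FXR BAT arrays read 102 to 109 against 90.3 to 103 on control BAT arrays, and the 4 FXR WAT arrays 108 to 126 against 75.0 to 95.6 on control WAT arrays. All 27 alternatives kept its direction, with values from -0.48 to -0.24, and it missed the threshold of 0.05 in 17 of them, with an adjusted p of up to 0.0902.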

How the results depend on the processing

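Of the 8 tested members, the count that passed in BAT was 4 as deposited, 3 to 4 with 1 array left out, and 1 without control BAT 2 and 4. In WAT it was 3, and 0 to 2 with 1 array left out. For the difference between tissues it was 1, and 0 to 2 with 1 array left out, 0 with the floor subtracted and 0 without FXR BAT 1, 2 and 4. Between control tissues 7 of 10 passed, 5 higher and 2 lower in BAT, while 96.8% of all genes passed. The count was 5 to 7 with 1 array left out and 6 to 10 in the other alternatives. After quantile normalization of the 9 control arrays 7 passed, all lower in BAT, while 57.9% of all genes passed. With the replicate number as a block (replicate block), 3 passed in BAT, 3 in WAT, 1 between tissues (Fstl1, in place of Fstl3) and 8 between control tissues. In WAT the block brought Fstl1 past the threshold (adjusted p = 0.0381) and Fstl3 out of it (0.0668, limma). Over all genes, BAT calls numbered 1398 and 1744 as deposited, 704 and 712 without control BAT 2 and 4, and 920 and 993 without FXR BAT 1, 2 and 4 (higher and lower). WAT calls numbered 23 and 26 without control WAT 1 and 243 and 93 without control WAT 3, against 174 and 91 with all arrays.

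Values that changed sign were these. In BAT, Ltbp2 was -0.0013 under quantile normalization, -0.036 with median centring and -0.068 without control BAT 2 and 4, with a range of -0.0041 to 0.131 when 1 array was left out, and Tgfb1 was -0.058 with median centring, with a range of -0.0075 to 0.055. In WAT, Tgfb2 was -0.0093 under quantile normalization and -0.011 with median centring, with a range of -0.018 to 0.035, and Inhbb ranged from -0.0075 to 0.156. For the difference between tissues, Inhbb was -0.034 under quantile normalization and -0.024 with median centring (range -0.0503 to 0.113). Ltbp1 was -0.085, -0.031 and, without FXR BAT 1, 2 and 4, -0.00598 (range -0.019 to 0.0695), and Ltbp2 was 0.115 without those arrays (range -0.0599 to 0.0753). Between control tissues, quantile normalization over 9 arrays, over 18 arrays and median centring gave -0.086, -0.0903 and -0.212 for Inhba, -1.18, -1.15 and -0.66 for Tgfb1, -0.27, -0.28 and -0.34 for Tgfb2, and -0.60, -0.60 and -0.50 for Fstl3. Tgfb1 was also -0.041 with the floor subtracted, -0.0014 with the replicate block and -0.0051 without control BAT 2 and 4, with a range of -0.0397 to 0.0323. The cause of these sign changes was not tested.

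The dim probe sets limit what can be seen: between 28.7% and 34.9% of probe sets lay within 1.5 times the floor on BAT arrays and between 58.2% and 62.8% on WAT arrays. The filter on dim genes removed Tgfb2 in WAT, so it has no value there. Subtracting the floor moved Tgfb3 to 1.38 in BAT and 0.55 in WAT.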
